A study of Mus musculus with 6 samples.

Results

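The 10 genes described here encode cathepsins, the proteases of the lysosome, and were taken by symbol from the GENCODE M21 annotation (Ctsa, Ctsb, Ctsc, Ctsd, Ctsf, Ctsh, Ctsk, Ctsl, Ctss and Ctsz). All 10 were found among the 54532 gene identifiers of the files. They were measured by RNA sequencing in iBMDM cells, which are immortalised macrophages derived from mouse bone marrow. The group called shPGAM5, the PGAM5 knockdown, had 3 libraries of cells infected with a short hairpin RNA against PGAM5, a protein phosphatase of mitochondria. The group called shDRP1, the DRP1 knockdown, had 3 libraries with a short hairpin RNA against DRP1, the GTPase that divides mitochondria and is encoded by Dnm1l. Every culture of both groups also received IL-4, an anti-inflammatory cytokine, at 10 ng/ml for 24 h. The series is about PGAM5 in the anti-inflammatory response of macrophages, and each comparison below is shPGAM5 against shDRP1. No library with a control hairpin or without IL-4 was analysed here, so a difference between the groups cannot be assigned to 1 knockdown. Genes said to fall or rise were lower or higher in the shPGAM5 than in the shDRP1 group, with no baseline implied. Whether libraries 1 to 3 of a group came from separate cultures or hairpins cannot be read from the titles. The p-values therefore reflect the spread between these libraries alone, which may be technical.

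Cathepsins are made as inactive precursors, tagged with mannose 6-phosphate, sorted to the lysosome and cut to their active form at acid pH. Most are cysteine proteases related to papain, while cathepsin D is an aspartic protease and cathepsin A a serine carboxypeptidase. In macrophages they degrade engulfed protein and trim the invariant chain from MHC class II molecules. Cystatins hold cysteine cathepsins that escape the lysosome in check.

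The libraries held 16111279 to 21933547 reads, recovered from the values as described with the processing. Pgam5 stood at 4.91 ± 0.31 FPKM (fragments per kilobase, scaled to the library's total; mean ± SD, n = 3) in its own knockdown and 17.2 ± 0.14 in the other, and Dnm1l at 17.9 ± 0.75 and 7.57 ± 0.55, so each label matched its target. shPGAM5 library 3 stood apart from its group, with a chi-square per gene of 8.15 against library 1 and 5.77 against library 2, where the other pairs within groups gave 2.65 to 3.25. Of 8 macrophage markers 7 were tested, and Csf1r, Cd68, Lyz2 and Fcgr1 were lower in the shPGAM5 group. Of all tested genes, 11.7% were called lower and 13.8% higher. Adgre1 (log2 difference 0.02), Cd14 (-0.05) and Itgam (-0.14) did not pass. The groups did not overlap for Cd14 and the 4 called markers, where 20.5% of all tested genes lay wholly lower. The summed level of that list was 3572 to 3738 FPKM against 4623 to 4665 in the shDRP1 group, and the largest part of that gap was Lyz2, with means of 1272 and 1954. Neutrophil, fibroblast, lymphocyte and dendritic cell markers each summed to at most 0.513 FPKM in any library.

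Most cathepsin transcripts were lower in the shPGAM5 group, by different amounts. Of the 9 genes tested, 6 fell (Ctsk, Ctsf, Ctsd, Ctsb, Ctss and Ctsz), 1 rose (Ctsl) and 2 did not pass (Ctsa and Ctsc), at a limma adjusted p of 0.05. Ctsh had a mean below 1 FPKM and was not tested. Over all 10634 genes tested, 11.7% were called lower, 13.8% higher and 25.4% in either direction. The median log2 difference was -0.29 over the 9 cathepsin genes and 0.01 over all genes tested. The members were chosen with earlier results of these data known, so these counts and this median are no independent evidence of direction. The groups did not overlap for the 6 genes that fell, where 20.5% of all tested genes lay wholly lower, or for Ctsl, where 23% lay wholly higher. In bulk RNA, fewer cells of a type and less RNA per cell cannot be told apart. Of the macrophage markers, 4 moved with these genes and 3 did not pass, and the part of the 4 in the result was not tested. The call of Ctsl was lost under 7 of 14 alternatives, in which no cathepsin gene was higher, among them leaving out shDRP1 library 1, 2 or 3. Without shPGAM5 library 3 the counts were as above, with 6 cathepsin genes lower and 1 higher, and the log2 differences were -0.66 for Ctsk, -0.34 for Ctss and 0.12 for Ctsl. The share of all calls that were higher was 54.1%, and 41.3% when FPKM was rescaled to an equal sum in each library. That rescaling also shifted which genes passed the filter (12175 were tested) and the weight of the pseudocount, and these were not separated.

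**Figure D1:**
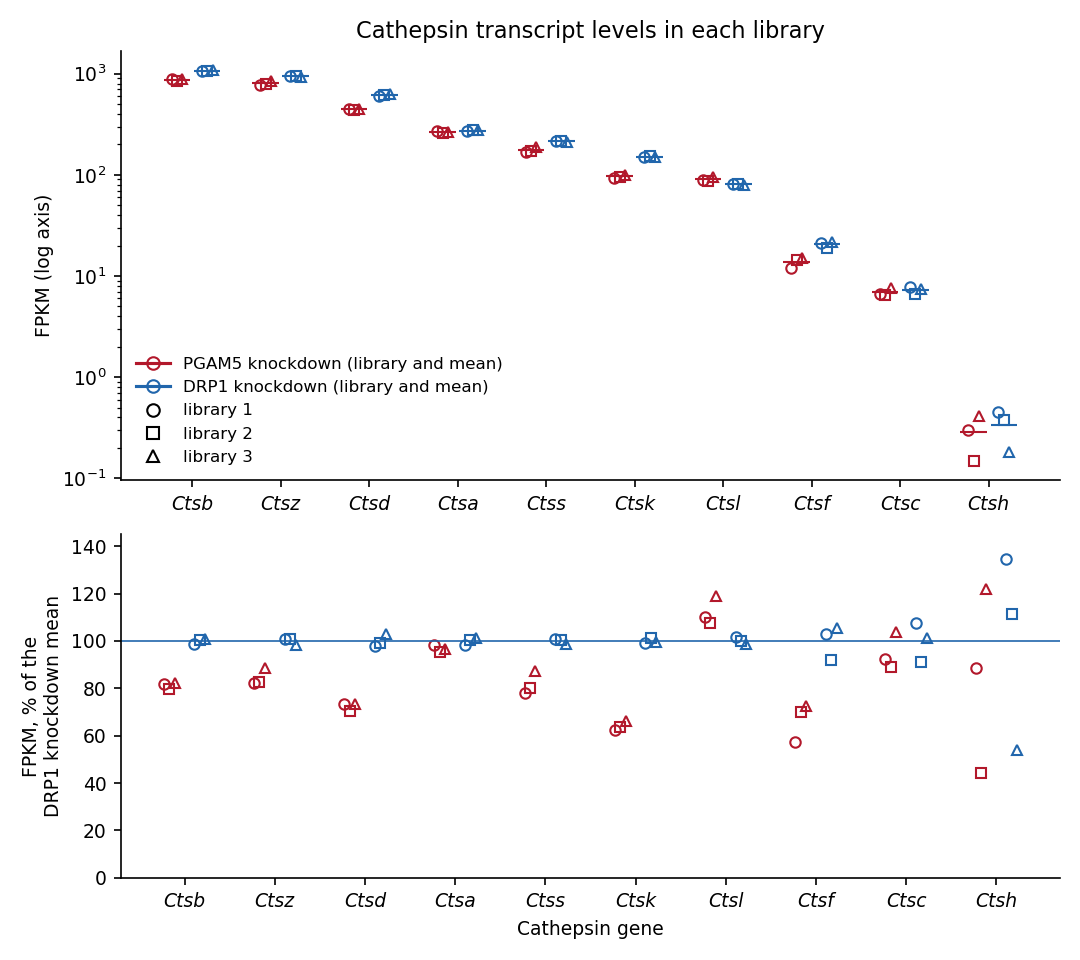
FPKM of each cathepsin gene in each library on a log axis (top), and the same values as a percentage of the shDRP1 mean (bottom). Points are libraries and short lines are group means (n = 3). The shPGAM5 libraries of Ctsk lie between 62.4% and 66.1% of the shDRP1 mean, and those of Ctsl between 107.6% and 118.9%.

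Ctsb and Ctsz were the most abundant members, at ranks 26 and 28 of the 10634 tested genes by mean FPKM. In the shDRP1 group the order from the highest mean was Ctsb, Ctsz, Ctsd, Ctsa, Ctss, Ctsk, Ctsl, Ctsf, Ctsc and Ctsh, and no neighbours in it overlapped. The same order held in the shPGAM5 group, where 1 pair of neighbours overlapped, Ctsk at 94.1 to 99.7 FPKM and Ctsl at 86.5 to 95.6. The place of Ctsl depends on the length by which its reads are divided. All its annotated exons together span 6489 bases, while its shorter principal transcript has 1971. Per that shorter length Ctsl stood at 297 in the shPGAM5 group and 265 in the shDRP1 group on the FPKM scale, above Ctss and Ctsk in both groups. Per its longer principal transcript, of 6168 bases, it stood at 94.9 and 84.6 and kept its place. For the other members no place changed when the principal transcript was used. The exceptions were Ctss and Ctsk, which moved down by 1 with the shorter transcript of Ctsl.

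The starts of these genes were compared for the E-box CACGTG, a sequence known to be bound by the TFEB and MITF family of lysosomal transcription factors. RefSeq promoter windows (build GRCm38.p6, the 250 bases before a start) were matched for 8 of the 10 members, with 9 windows in all. On either strand CACGTG was found in 4 of the 9 windows, those of Ctsd, Ctsf, Ctsl and the second start of Ctsa, and in 6.02% of all 32851 windows. The longer TCACGTGA, which contains CACGTG, was found in Ctsd and Ctsa, and in 0.785% of all windows. GAGGAAGT, a motif of the macrophage factor PU.1, matched in Ctsc alone among the members and in 2.44% of all windows. TGANTCA, a motif of AP-1, matched in none of the 9 and in 6.75% of all. The stretches below show the E-boxes in capitals, 5′ to 3′ on the strand of the gene, so that genes that fell, rose and did not pass can be set side by side.
Ctsd, chr7:142387908-142387937, minus strand: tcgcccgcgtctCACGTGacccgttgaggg
Ctsd, chr7:142388048-142388077, minus strand: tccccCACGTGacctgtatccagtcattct
Ctsf, chr19:4855074-4855103, plus strand: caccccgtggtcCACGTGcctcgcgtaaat
Ctsl, chr13:64370739-64370768, minus strand: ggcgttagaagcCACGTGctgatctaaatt
Ctsa, chr2:164833743-164833772, plus strand: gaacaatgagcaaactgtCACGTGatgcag

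The E-boxes began 98 and 245 bases before the RefSeq start in Ctsd, 79 in Ctsf, 236 in Ctsl and 12 before the second start in Ctsa. By the GENCODE coordinates of the genes, the box of Ctsf and the farther box of Ctsd lie outside the gene, while the nearer box of Ctsd and those of Ctsl and Ctsa lie within it, after its first annotated base. The genes with a box thus include 2 that fell, 1 that rose and 1 that did not pass. The windows of Ctsk, Ctss and Ctsz, which fell, held none of the 4 motifs. The window of Ctsk, the gene with the largest fall, is shown for comparison and has a GC content of 43.2%, against 67.2% for Ctsd.
Ctsk, chr3:95498960-95499209, plus strand: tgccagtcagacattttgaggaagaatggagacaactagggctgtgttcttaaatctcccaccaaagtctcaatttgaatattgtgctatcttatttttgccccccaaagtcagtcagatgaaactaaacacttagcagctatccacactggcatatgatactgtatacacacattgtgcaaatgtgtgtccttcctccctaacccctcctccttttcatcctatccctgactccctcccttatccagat

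Ctsk (ENSMUSG00000028111, chromosome 3, 95499256 to 95509362, plus strand, mm10) encodes cathepsin K, the collagen-degrading protease best known from osteoclasts. It measured 94.1, 96.1 and 99.7 FPKM in shPGAM5 libraries 1 to 3 and 149, 153 and 150 in shDRP1 libraries 1 to 3. Every shPGAM5 library lay far below every shDRP1 library, and the spread within groups was small. The mean was 1.56-fold lower (96.6 ± 2.86 against 151 ± 1.88 FPKM; -0.64 ± 0.030 SE on the log2 scale, 95% confidence interval -0.71 to -0.57, limma adjusted p = 2.78e-05), on 7660 against 12704 reads. Of all tested genes, 0.903% had a lower difference. Of 7 osteoclast markers only 3 were tested, and 0 were called lower, where 11.7% of all tested genes were. Calcr, Ocstamp, Oscar and Itgb3 averaged under 1 FPKM and were not tested. Acp5 stood at 15.5 ± 0.83 against 15.8 ± 0.55 FPKM and did not pass, Mmp9 and Dcstamp were higher in the shPGAM5 group (log2 differences 0.70 and 0.33), and Calcr was at 0 in all 6 libraries. Dcstamp reached the filter through the shPGAM5 group alone, and that list kept 1 call instead of 2 with shPGAM5 library 3 or any 1 shDRP1 library omitted.

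Ctss encodes cathepsin S, an endopeptidase that trims the invariant chain, and lies 17424 bases beyond the end of Ctsk on the same strand (ENSMUSG00000038642, chromosome 3, 95526786 to 95556403). It measured 168, 172 and 188 FPKM in the shPGAM5 libraries and 217, 216 and 212 in the shDRP1 libraries. shPGAM5 library 3 was the highest of its group and still below all 3 shDRP1 libraries. The mean was 1.22-fold lower (176 ± 10.4 against 215 ± 2.55 FPKM; -0.29 ± 0.043 SE on the log2 scale, limma adjusted p = 0.00317). The confidence interval of Ctss, -0.39 to -0.19, did not reach that of its neighbour Ctsk. Arnt, the next tested gene before Ctsk, stood at 17.3 ± 0.71 against 18.5 ± 0.87 FPKM, and Golph3l, after Ctss, at 16.5 ± 1.02 against 18.2 ± 0.75. Neither passed. Around the 7 called cathepsin genes there were 12 nearest tested neighbours that neither overlap them nor are cathepsins. Their distances reached 373728 bases, for Mtmr9 after Ctsb. Of the 12, 2 were called, where 25.4% of all tested genes were. Zdhhc24 beside Ctsf was the 1 called in the direction of its cathepsin.

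Ctsl (ENSMUSG00000021477, chromosome 13, 64359337 to 64370890, minus strand) encodes cathepsin L, an endopeptidase that overlaps with cathepsin S in its substrates, and was the member that rose. It measured 88.4, 86.5 and 95.6 FPKM in the shPGAM5 libraries and 81.6, 80.3 and 79.3 in the shDRP1 libraries. The groups did not overlap, and library 3 of the shPGAM5 group was the farthest from the other group. The mean was 1.12-fold higher (90.2 ± 4.80 against 80.4 ± 1.16 FPKM; 0.16 ± 0.041 SE on the log2 scale, 95% confidence interval 0.07 to 0.26, limma adjusted p = 0.0258). The call was lost under 7 of 14 alternatives, among them leaving out shDRP1 library 1, 2 or 3, with adjusted p from 0.00399 to 0.0895 over all 14. The difference was positive in all 14. An antisense gene, Gm47123, and a processed pseudogene, Gm49230, share 26.8% and 6.09% of the exonic bases of Ctsl, and both were at 0 FPKM in all 6 libraries. Where the counting drops reads that 2 genes share, Ctsl would lose reads there, which was not tested.

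Ctsf (ENSMUSG00000083282, chromosome 19, 4855130 to 4860918, plus strand) encodes cathepsin F, a further cysteine protease that can process the invariant chain. It measured 12, 14.5 and 15.1 FPKM in the shPGAM5 libraries and 21.4, 19.1 and 21.9 in the shDRP1 libraries. shPGAM5 library 1 was the lowest, and the groups lay apart. The mean was 1.5-fold lower (13.9 ± 1.67 against 20.8 ± 1.5 FPKM; -0.56 ± 0.089 SE on the log2 scale, limma adjusted p = 0.0043). Its coefficient of variation, 12% in the shPGAM5 group and 7.21% in the shDRP1 group, was larger than those of Ctsk, Ctsd, Ctsb, Ctss and Ctsz, and its interval, -0.76 to -0.35, covered the whole interval of Ctsk.

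Ctsb and Ctsz encode cathepsins B and Z, which remove residues from the carboxyl end of proteins, cathepsin B also cutting within them. Ctsb (ENSMUSG00000021939, chromosome 14, 63122462 to 63145923, plus strand) measured 879, 853 and 882 FPKM in the shPGAM5 libraries and 1060, 1075 and 1082 in the shDRP1 libraries. Ctsz (ENSMUSG00000016256, chromosome 2, 174427493 to 174439039, minus strand) measured 779, 785 and 842 against 957, 957 and 934 FPKM. All shPGAM5 libraries were below all shDRP1 libraries for both genes. Ctsb was 1.23-fold lower (871 ± 15.8 against 1072 ± 11.4 FPKM; -0.30 ± 0.027 SE on the log2 scale, limma adjusted p = 0.000381). Ctsz was 1.18-fold lower (802 ± 34.5 against 949 ± 13.4 FPKM; -0.24 ± 0.036 SE on the log2 scale, limma adjusted p = 0.00325). Fdft1, on the opposite strand, shares 12.8% of the exonic bases of Ctsb and stood at 3.15 and 3.11 FPKM in the groups.

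Ctsd (ENSMUSG00000007891, chromosome 7, 142375911 to 142388038, minus strand) encodes cathepsin D, the aspartic protease of the lysosome. It measured 452, 435 and 451 FPKM in the shPGAM5 libraries and 602, 611 and 634 in the shDRP1 libraries. The gap between the groups was several times the spread within either. The mean was 1.38-fold lower (446 ± 9.75 against 616 ± 16.6 FPKM; -0.47 ± 0.032 SE on the log2 scale, 95% confidence interval -0.54 to -0.39, limma adjusted p = 0.000104). Gm49369, a predicted coding gene on the same strand, shares 34.4% of the exonic bases of Ctsd and was at 0 FPKM in all 6 libraries. Whether Ctsd lost reads there was not tested.

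Ctsa, Ctsc and Ctsh gave no call. Ctsa (ENSMUSG00000017760, chromosome 2, 164832873 to 164841032, plus strand) encodes cathepsin A, which also stabilises beta-galactosidase and neuraminidase 1 in the lysosome. It measured 269, 261 and 264 FPKM in the shPGAM5 libraries and 269, 275 and 277 in the shDRP1 libraries. The groups met at 269 FPKM, and the log2 difference was -0.05, with a 95% confidence interval of -0.11 to 0.02 (limma adjusted p = 0.24). Under quantile normalization, which gives all libraries the same distribution, the difference was -0.14 and passed (limma adjusted p = 0.0149). The genes of its partners, Glb1 and Neu1, did not pass either. Unlike Ctsa, both lay wholly higher in the shPGAM5 group, as did 23% of all tested genes. Pltp and Neurl2, on the opposite strand, share 10.5% and 6.87% of the exonic bases of Ctsa.

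Ctsc (ENSMUSG00000030560, chromosome 7, 88278085 to 88310888, plus strand) encodes cathepsin C, a dipeptidyl peptidase that activates the serine proteases of granules. It measured 6.71, 6.46 and 7.54 FPKM in the shPGAM5 libraries and 7.81, 6.62 and 7.36 in the shDRP1 libraries, and the groups overlapped. The log2 difference was -0.06, with a wider interval of -0.24 to 0.11 (limma adjusted p = 0.566). Ctsh (ENSMUSG00000032359, chromosome 9, 90054152 to 90076089, plus strand) encodes cathepsin H, an aminopeptidase. It measured 0.30, 0.15 and 0.41 FPKM in the shPGAM5 libraries and 0.46, 0.38 and 0.18 in the shDRP1 libraries, on 69 against 81 reads. These values overlapped, where 3 reads are worth 0.030 to 0.041 FPKM, and the coefficient of variation was 45.9% in the shPGAM5 group and 41.5% in the shDRP1 group. For single members the exact permutation test (two-sided) gave p = 0.1 for each of the 7 called genes, the smallest that 3 libraries against 3 allow.

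**Figure D2:**
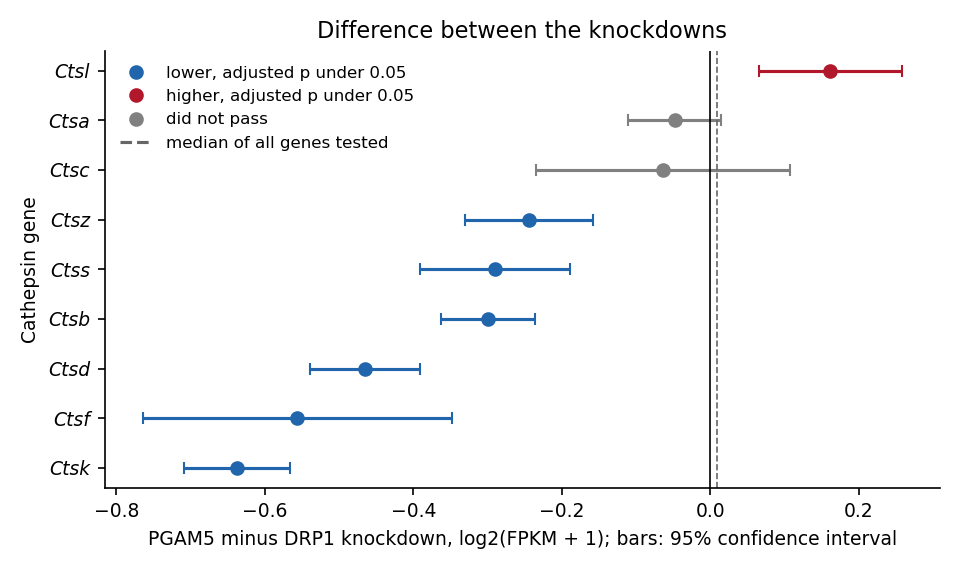
Difference of each tested cathepsin gene between the knockdowns on the log2(FPKM + 1) scale, with its 95% confidence interval from limma. The dashed line is the median of all tested genes, 0.01. Ctsk, Ctsf and Ctsd lie lowest, from -0.64 to -0.47, and Ctsl is the one above 0 at 0.16.

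Ratios between members within a library are unchanged by any scaling that multiplies a library by 1 factor, though not by quantile normalization. The ratio of Ctsl to Ctsk was 0.940, 0.90 and 0.959 in the shPGAM5 libraries and 0.547, 0.525 and 0.528 in the shDRP1 libraries. The ratio of Ctsd to Ctsa was 1.68 ± 0.021 (SD, n = 3) against 2.25 ± 0.032, and that of Ctsk to Ctss was 0.550 ± 0.016 against 0.701 ± 0.011. These 3 ratios did not overlap between the groups. The ratio of Ctsb to Ctsz, 1.09 ± 0.040 against 1.13 ± 0.026, did overlap. The ratios were chosen after the values were seen and were not tested. The 10 genes together took 0.960% to 1.00% of all reads in the shPGAM5 libraries and 1.17% to 1.19% in the shDRP1 libraries. Within their summed FPKM, Ctsb held 31.5% in the shPGAM5 group and 31.7% in the shDRP1 group, Ctsd 16.1% and 18.2%, and Ctsl 3.26% and 2.38%.

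**Figure D3:**
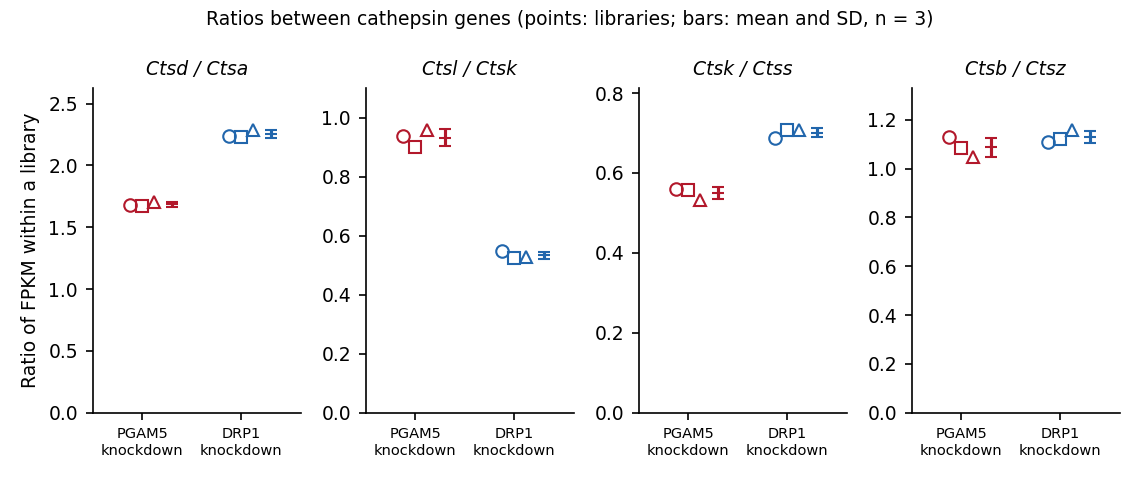
Ratio of FPKM between pairs of cathepsin genes within each library, with axes that start at 0. Points are libraries, bars the mean and SD of each group (n = 3). The ratio of Ctsl to Ctsk lies between 0.90 and 0.959 in the shPGAM5 group and between 0.525 and 0.547 in the shDRP1 group, while the groups overlap for Ctsb to Ctsz.

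The genes most like each called member were named by the smallest root mean square distance of log2(FPKM + 1), centred on the mean of the 6 libraries. Among all tested genes outside the cathepsins, without Gm and Rik symbols, Ctsk was nearest to Vps26a (distance 0.018) and Lyz2 (0.027), the main lysozyme gene of macrophages. Vps26a, a part of the retromer that returns sorting receptors from endosomes, stood at 40.8 ± 0.96 against 62.9 ± 0.21 FPKM. Ctss was nearest to Ifi30 (0.012), a reductase of lysosomes that acts in antigen processing, and Timm9 (0.012). Ctsz was nearest to Psmb6 (0.0097) and Atp6v1c1 (0.011), Ctsb to Ikzf1 (0.011) and Timm29 (0.016), and Ctsd to Mia3 (0.016) and AW549877 (0.020). Ctsf was nearest to Rn7sk (0.042) and Mfsd7a (0.042), and Ctsl to Cct7 (0.0043) and Spryd3 (0.012). Within the family, Ctss and Ctsz were nearest to each other, at 0.027. These distances describe 6 libraries in 2 groups, so genes with a difference of like size lie close.

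The remaining cathepsin genes of the mouse were low or at 0. Of 13, 9 had no read in any library, among them Ctsj, Ctsm and Ctsq, which are known from placenta. Ctse, an aspartic protease, fell, at 1.6 ± 0.28 against 4.00 ± 0.30 FPKM (a log2 change of -0.95 ± 0.092 SE, limma adjusted p = 0.000511), on 267 against 701 reads. Ctso stood at 0.53 ± 0.19 against 1.51 ± 0.021 FPKM and reached the filter of 1 FPKM through the shDRP1 group alone, so its call (limma adjusted p = 0.00274) is not counted in support. Ctsg and Ctsw, known from neutrophils and lymphocytes, had 3 and 8 reads over all libraries.

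The list of cystatins, serpins and other protease inhibitors gave calls in both directions. Of 20 found, 8 were tested, 1 rose, 2 fell and 5 did not pass (median log2 difference -0.05), where 13.8% of all tested genes were higher and 11.7% lower. Serpinb6b, a serpin, was 2.96-fold higher in the shPGAM5 group at 8.61 ± 0.45 against 2.91 ± 0.24 FPKM (a log2 change of 1.30, limma adjusted p = 2.79e-05). Cstb, the cytosolic cystatin B, was lower in the shPGAM5 group, at 396 ± 31.7 against 469 ± 9.01 FPKM (a log2 difference of -0.24, limma adjusted p = 0.0164). Spink5, an inhibitor of serine proteases, was lower as well (-0.26). Cst3, the secreted cystatin C, measured 380 ± 24.5 against 382 ± 2.43 FPKM and did not pass. Cstb missed the threshold when no filter was used and when library 2 of the shPGAM5 group or library 2 or 3 of the shDRP1 group was omitted (adjusted p as high as 0.0641).

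Transcripts of proteins that cut, bind or accompany cathepsins were in part lower. Of 10 genes, all tested, 5 fell, 1 rose and 4 did not pass (median log2 difference -0.12). For comparison, 11.7% of all tested genes were called lower and 13.8% higher. Litaf, a membrane protein of late endosomes, fell most (-0.68), at 62.8 ± 1.00 against 101 ± 0.45 FPKM, and the tetraspanin gene Cd63 fell (-0.27), 16.1% of its longest transcript matching Cd63-ps and Gm12088. The other 3 were Lgmn (-0.12), Psap (-0.20) and Grn (-0.22). Lgmn encodes a protease that cuts cathepsin precursors after asparagine residues, and the products of Psap and Grn bind cathepsin D or its precursor. Sort1, a sorting receptor, rose (0.31), at 1.38 ± 0.092 against 0.92 ± 0.090 FPKM, and reached the filter of 1 FPKM through the shPGAM5 group alone. Its call was absent in 5 of 14 alternatives, which were the replicate block and fits omitting library 1 or 2 of the shPGAM5 group or 2 or 3 of the shDRP1 group (adjusted p as high as 0.083).

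Delivery to the lysosome and its acidification were also read from lists, beside the shares of all tested genes called lower (11.7%) and higher (13.8%). Of 16 delivery genes, 3 rose, 4 fell and 9 did not pass (median -0.04). Sort1, with the limits given above, is 1 of the 3 that rose. Igf2r and M6pr, the receptors of the mannose 6-phosphate tag, measured 72.2 ± 6.21 against 71.9 ± 1.00 and 78.7 ± 4.80 against 85.7 ± 0.69 FPKM and did not pass. M6pr lay wholly lower in the shPGAM5 group, as did 20.5% of all tested genes. Vps26a had the largest difference (-0.61), and Ap1s1, a subunit of the AP-1 coat adaptor, rose (0.25). Of 19 genes of the proton pump and the chloride exchanger beside it, 12 fell, 0 rose and 7 did not pass (median -0.15). Atp6ap2 (-0.44), Atp6v1d (-0.43) and Ostm1 (-0.38), the partner of the exchanger, had the largest differences. For Atp6ap2, 18.8% of its longest transcript matched the predicted gene Gm36448. Atp6v0d2 of the acidification list was already known to be lower in these libraries, so that count is no independent evidence of direction.

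The transcription factors Tfeb, Mitf and Tfe3, known to act on lysosomal genes, gave no call. Tfeb stood at 1.65 ± 0.022 against 1.61 ± 0.20 FPKM, Mitf at 5.09 ± 0.23 against 4.70 ± 0.18 and Tfe3 at 15.2 ± 0.43 against 16.4 ± 0.14. The groups overlapped for Tfeb and Mitf but not for Tfe3 (limma adjusted p = 0.0598). Among all tested genes, 20.5% lay wholly lower in the shPGAM5 group. Of 11 tested genes of that list 3 fell, 0 rose and 8 did not pass (median -0.11). Shares called among all tested genes were 11.7% lower and 13.8% higher. The 3 were Flcn (-0.18), Fnip2 (-0.17) and Fnip1 (-0.16), the folliculin complex that controls these factors. Leaving out any 1 shDRP1 library left 1 of the 3, and so did testing without the filter, while quantile normalization gave 5 lower. Their protein activity was not measured here.

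Few listed substrates and clients of these cathepsins could be tested. With 11.7% of all tested genes lower and 13.8% higher, 0 lower among 5 does not set them apart. Of 13 listed genes 5 were tested, 2 rose, 0 fell and 3 did not pass (median 0.02), while 1 was lower under quantile normalization and 1 without shPGAM5 library 1. Cd74, the invariant chain that cathepsins S and L trim, measured 1171 ± 32.1 against 1154 ± 27.4 FPKM. Bid (0.16) and Lmna (0.09) rose. Bcl2l13, on the opposite strand, shares 17.7% of the exonic bases of Bid, and 26% of the longest transcript of Bid matched it. Bid lost its call after rescaling and without shDRP1 library 2, with adjusted p reaching 0.119. Lmna lost it under 9 of 14 alternatives, leaving out library 1 or 2 of the shPGAM5 group or any library of the shDRP1 group among them, with adjusted p reaching 0.325. The granule proteases that cathepsin C activates were at 0 or near it, with Gzma, Gzmb and Gzmk at 0 reads and Elane and Prtn3 at 2 and 11 reads over all 6 libraries.

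**Figure D4:**
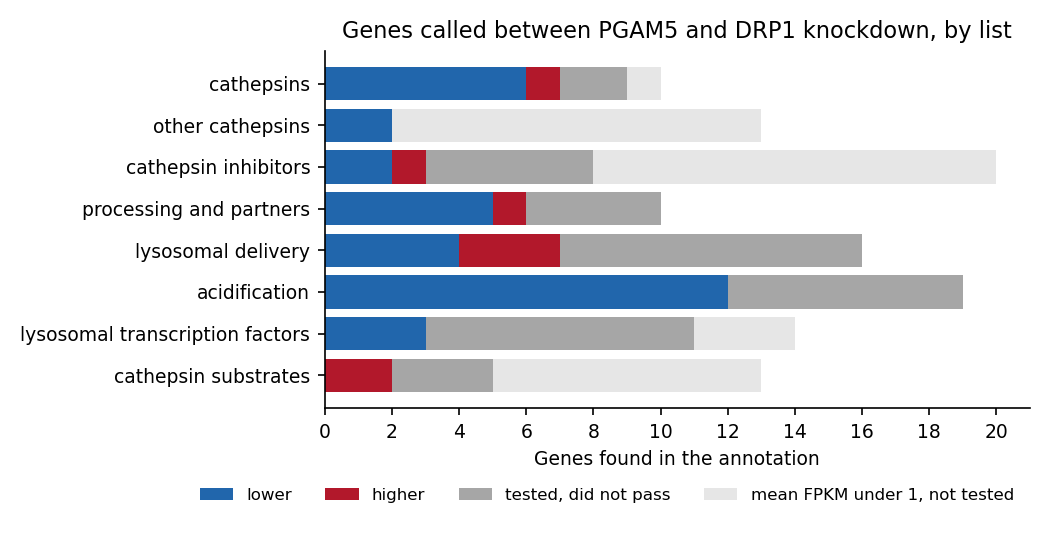
Number of genes in each list that were lower, higher or not called between the knockdowns, and those with a mean FPKM under 1 that were not tested. The cathepsins show 6 lower and 1 higher, acidification 12 lower and 0 higher, and the substrates 0 lower and 2 higher of 5 tested. Among all tested genes, 11.7% were lower and 13.8% higher.

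**Figure D5:**
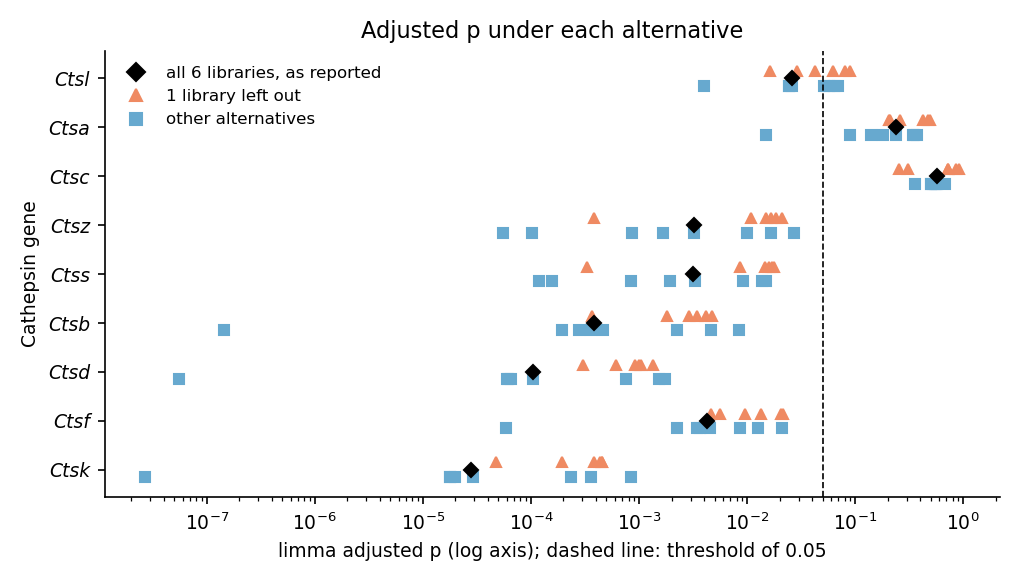
limma adjusted p of each tested cathepsin gene with all 6 libraries and under 14 alternatives, on a log axis. The 6 genes that fell stay under the threshold of 0.05 in all 14, the highest value being 0.0271 for Ctsz, while Ctsl crosses it in 7.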

How the data were processed

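RNA from 6 libraries was analysed from the FPKM values that the authors deposited, 1 value per gene and library. Per the submitters' processing notes, reads were aligned with HISAT2 2.0.5 and counted with featureCounts 1.5.0-p3 on mm10. No source used here gives the annotation release, strand setting or FPKM formula, and FPKM scales each gene to its library's total. Symbols, positions and exonic lengths came from GENCODE M21 on the same build, which matched 54495 identifiers and left 37. Multiplying FPKM by exonic length and 1 depth per library gave values within 0.02 of a whole number for 96.1% of values above 0 in each library, and these depths are given as reads. The floor of 3 reads covers counting error only, while confidence intervals come from limma and reflect the spread between libraries.

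Groups followed the titles. limma 3.58.1 (R 4.3.3) compared log2(FPKM + 1) between groups for genes averaging at least 1 FPKM (mean-variance trend, two-sided, Benjamini-Hochberg over all 10634 genes, threshold 0.05). Differences are PGAM5 minus DRP1 knockdown and understate the change of low genes. Folds are ratios of mean FPKM. Exact permutation tests used scipy 1.17.1. Alternatives were another pseudocount (0.1), no filter, 3 other scalings, a replicate block, no trend, voom on the recovered reads and leaving out each library. Transcript matches were sought with blastn 2.17.0 (97% identity over at least 100 bases).

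The members and lists were chosen with earlier results of these data known. Named genes are the 10 members, up to 3 called genes of each list with the largest differences, or its most abundant gene if none was called, and the 2 genes most like each called member. Other genes were named after their values were seen.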

Additional observations from a re-analysis of the deposited data

How the results depend on the processing

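The 9 tested cathepsin genes kept their direction under all 14 alternatives, and the 6 that fell kept their calls. The count of cathepsins called lower was 6 throughout, apart from 7 under quantile normalization, where Ctsa passed. The count called higher, 1 as reported, was 0 without the filter on low values, after rescaling to an equal sum, with the replicate block and without the mean-variance trend, and 0 to 1 when a library was left out. Ctsl accounts for that count, with adjusted p of 0.0636, 0.0692, 0.057 and 0.0519 under those 4 settings in order and 0.0624, 0.0809 and 0.0895 without shDRP1 library 1, 2 or 3. The cause was not tested. Over all genes, 971 were higher without shDRP1 library 2 against 1464 as reported, and 825 lower without shDRP1 library 3 against 1240. Same-numbered libraries of the groups did not deviate together (correlations of 0.021, 0.031 and 0), so the numbers were not taken as pairs. The blocked fit called 1161 genes higher and 972 lower, and 0 and 6 cathepsins. Ctsh, at 11 to 34 reads a library, was not tested, and how far depth limits it was not tested either.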
